A study of Mus musculus with 26 samples.

Results

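The genes described here form the set of glycolysis enzymes, glucose and lactate transporters, pyruvate switch kinases and hypoxia target genes, 34 genes listed by name, of which 32 were measured among the 19505 named genes of the arrays. Gpi1 and Eno1 were not analysed here. The list goes by what the genes do, and it was drawn up with earlier results of these data known. The arrays came from cortical neural stem and progenitor cells (NSPCs), grown from the telencephalon of C57BL/6 mice that the labels stage at postnatal day 0 and also call fetal. Cells of each animal were cultured apart, in Neurocult medium with EGF, FGF-1, proliferation supplement and penicillin-streptomycin, and after passage 3 they received 100 nM dexamethasone (Dex), a synthetic glucocorticoid, or its ethanol vehicle for 4 h. The groups were SOX2 knockout (KO) cultures with Dex and with vehicle, 7 cultures each, and wild-type (WT) cultures with Dex and with vehicle, 6 cultures each, so that every culture gave a pair of arrays. SOX2 is a transcription factor that keeps neural progenitors undifferentiated. How Sox2 was deleted is not given in the sources used here, both sexes were used, and the sex behind each array is not given.

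Glycolysis splits glucose into pyruvate in the cytosol, and lactate dehydrogenase then turns pyruvate into lactate, or the mitochondria take it up through pyruvate dehydrogenase, which the pyruvate dehydrogenase kinases switch off. When oxygen is short, hypoxia-inducible factor (HIF) binds short DNA elements near many of these genes and raises their transcription, together with genes for blood vessel growth, acid balance and mitophagy. Neural progenitors rely on glycolysis while they divide, and glucocorticoids are known to raise Pdk4 and to restrain glucose use in several tissues.

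The core of the HIF element reads ACGTG or GCGTG. It was searched on both strands in the 250 bases before each annotated start, and 1 window of each of 5 genes that the results below return to is shown, with every match in it in capitals. Ldha has 2 annotated windows, of which the one with more matches is shown. The sequences are RefSeq's, on build GRCm38.p6, written 5′ to 3′ on the gene's strand. Adm lies at chr7:110627407-110627656 on the plus strand, Pfkp at chr13:6648772-6649021 on the minus strand, Pgk1 at chrX:106186850-106187099 on the plus strand, Ldha at chr7:46845554-46845803 on the plus strand and Tpi1 at chr6:124814159-124814408 on the minus strand.
Adm: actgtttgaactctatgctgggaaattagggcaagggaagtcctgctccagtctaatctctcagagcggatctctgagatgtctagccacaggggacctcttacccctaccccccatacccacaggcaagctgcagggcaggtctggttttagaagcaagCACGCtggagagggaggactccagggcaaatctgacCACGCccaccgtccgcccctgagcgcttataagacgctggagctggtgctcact
Pfkp: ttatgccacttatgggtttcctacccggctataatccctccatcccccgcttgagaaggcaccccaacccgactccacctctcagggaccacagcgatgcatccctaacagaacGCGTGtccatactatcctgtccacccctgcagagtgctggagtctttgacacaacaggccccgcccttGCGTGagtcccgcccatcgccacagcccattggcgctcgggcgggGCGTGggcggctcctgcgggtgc
Pgk1: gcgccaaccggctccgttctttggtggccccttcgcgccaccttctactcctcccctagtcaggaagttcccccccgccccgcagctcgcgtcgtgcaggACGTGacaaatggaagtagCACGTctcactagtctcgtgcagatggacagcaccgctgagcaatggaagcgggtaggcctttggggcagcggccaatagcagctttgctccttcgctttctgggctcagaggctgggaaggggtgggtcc
Ldha: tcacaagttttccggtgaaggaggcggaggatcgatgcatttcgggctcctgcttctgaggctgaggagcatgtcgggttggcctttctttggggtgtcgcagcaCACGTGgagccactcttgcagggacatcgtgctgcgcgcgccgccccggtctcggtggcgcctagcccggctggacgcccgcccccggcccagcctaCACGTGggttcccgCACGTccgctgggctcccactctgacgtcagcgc
Tpi1: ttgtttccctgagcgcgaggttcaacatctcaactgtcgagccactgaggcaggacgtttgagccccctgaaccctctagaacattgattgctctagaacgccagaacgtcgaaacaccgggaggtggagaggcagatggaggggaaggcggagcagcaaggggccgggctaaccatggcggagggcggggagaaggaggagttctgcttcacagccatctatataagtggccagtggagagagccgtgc

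Pfkp held 3 matches, Adm and Pgk1 held 2 each, and the Ldha window shown held 5, a pair of which overlap at each of 2 palindromes reading CACGTG. The Tpi1 window held none. Windows were given for 30 of the 32 measured genes, and 28 of these genes (93.3%) had a match in at least 1 window, against 41.5% of the 27025 genes in the table. Counted by window, 33 of 42 windows of the set (78.6%) held a match, against 38.6% of 32851 windows. Eno2 was the other gene with none, and 6 genes held the palindrome. The genes of the table were not matched to the set for base composition, and the set was listed partly for being hypoxia targets. A match describes the letters of the window and no binding was measured.

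The values are log2 levels as deposited, so a difference of 1 is a doubling, and a level of one gene cannot be set against that of another. Sox2 itself was at a median of 4.74 in KO cultures with Dex, 4.51 in KO cultures with vehicle, 12.99 in WT cultures with Dex and 13.22 in WT cultures with vehicle. Fkbp5, a standard glucocorticoid target, was higher with Dex by 1.79 to 2.83 in the 7 KO cultures and by 1.27 to 1.87 in 5 WT cultures, whereas the difference in WT culture 4 was -2.03. Per1, Klf9 and Tsc22d3 also ran the other way in culture 4, so its values go against its treatment labels. Some results that rest on it are given with and without it. Profiles also fell into 3 array clusters that cut across the groups. Cluster 1 held KO cultures 7 and 8 and WT cultures 1, 2 and 3, cluster 2 held KO cultures 10 and 12 and WT culture 4, and cluster 3 held KO cultures 9, 11 and 13 and WT cultures 5 and 6. The upper quartile of an array was 10.09 to 10.43 in cluster 1, 9.38 to 9.78 in cluster 2 and 9.58 to 9.79 in cluster 3. The labels name no batch. Of the progenitor markers, Nes ran from 11.68 to 13.62 and Fabp7 from 18.58 to 19.42 over all arrays. The mean of 12 such markers, Sox2 among them, was 10.67 to 11.33 in KO Dex, 10.99 to 11.46 in KO vehicle, 11.23 to 12.07 in WT Dex and 11.79 to 11.95 in WT vehicle, and the deleted gene is part of that mean. The median KO minus WT difference over the 12 was -0.01 in Dex and 0.04 in vehicle, and Sox2 was the only one of them called. For Dex against vehicle, 10 of the 12 were below 0 in KO (median -0.35) and 9 in WT (median -0.16), none called. Over all genes 54.5% lay below 0 in KO and 49% in WT. The unadjusted p was under 0.05 for 5 in KO and 2 in WT, against 10.2% and 3.87% of all genes. For KO against WT the 6 measured oligodendrocyte lineage markers had medians of -0.03 in Dex and -0.04 in vehicle, none called. Of 7 neuron markers 5 lay below 0 in each treatment, with a median of -0.47 in Dex and -0.24 in vehicle, and an unadjusted p under 0.05 for 3 in Dex and 1 in vehicle. Syt1, a synaptic vesicle gene, was the only neuron marker called, at -1.42 ± 0.34 in Dex (adjusted p = 0.0399) and -1.59 ± 0.34 in vehicle (adjusted p = 0.0149). The part of the progenitor, oligodendrocyte lineage and neuron markers in the results below was not tested. The 6 microglial and 5 endothelial markers averaged between 4.26 and 5.37 on every array.

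None of the 32 genes passed the test in any of the 5 comparisons made, which set KO against WT with Dex and again with vehicle, and Dex against vehicle in each genotype, and the difference between those Dex effects. The test was limma's moderated test with p-values adjusted by Benjamini and Hochberg over all 19505 genes, at a threshold of 0.05. The mean over the 32 genes was 9.48 ± 0.23 in KO Dex and 9.55 ± 0.26 in KO vehicle (SD, n = 7 each), 9.75 ± 0.25 in WT Dex and 9.76 ± 0.25 in WT vehicle (SD, n = 6 each). For KO against WT the p-values measure the spread between arrays within the groups, with both arrays of a culture taken as independent. For the Dex effects and their difference they measure the spread of the paired differences between cultures. The number of arrays limits their precision. In cultures of many cells, fewer cells of a type and less RNA per cell cannot be told apart.

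**Figure D1:**
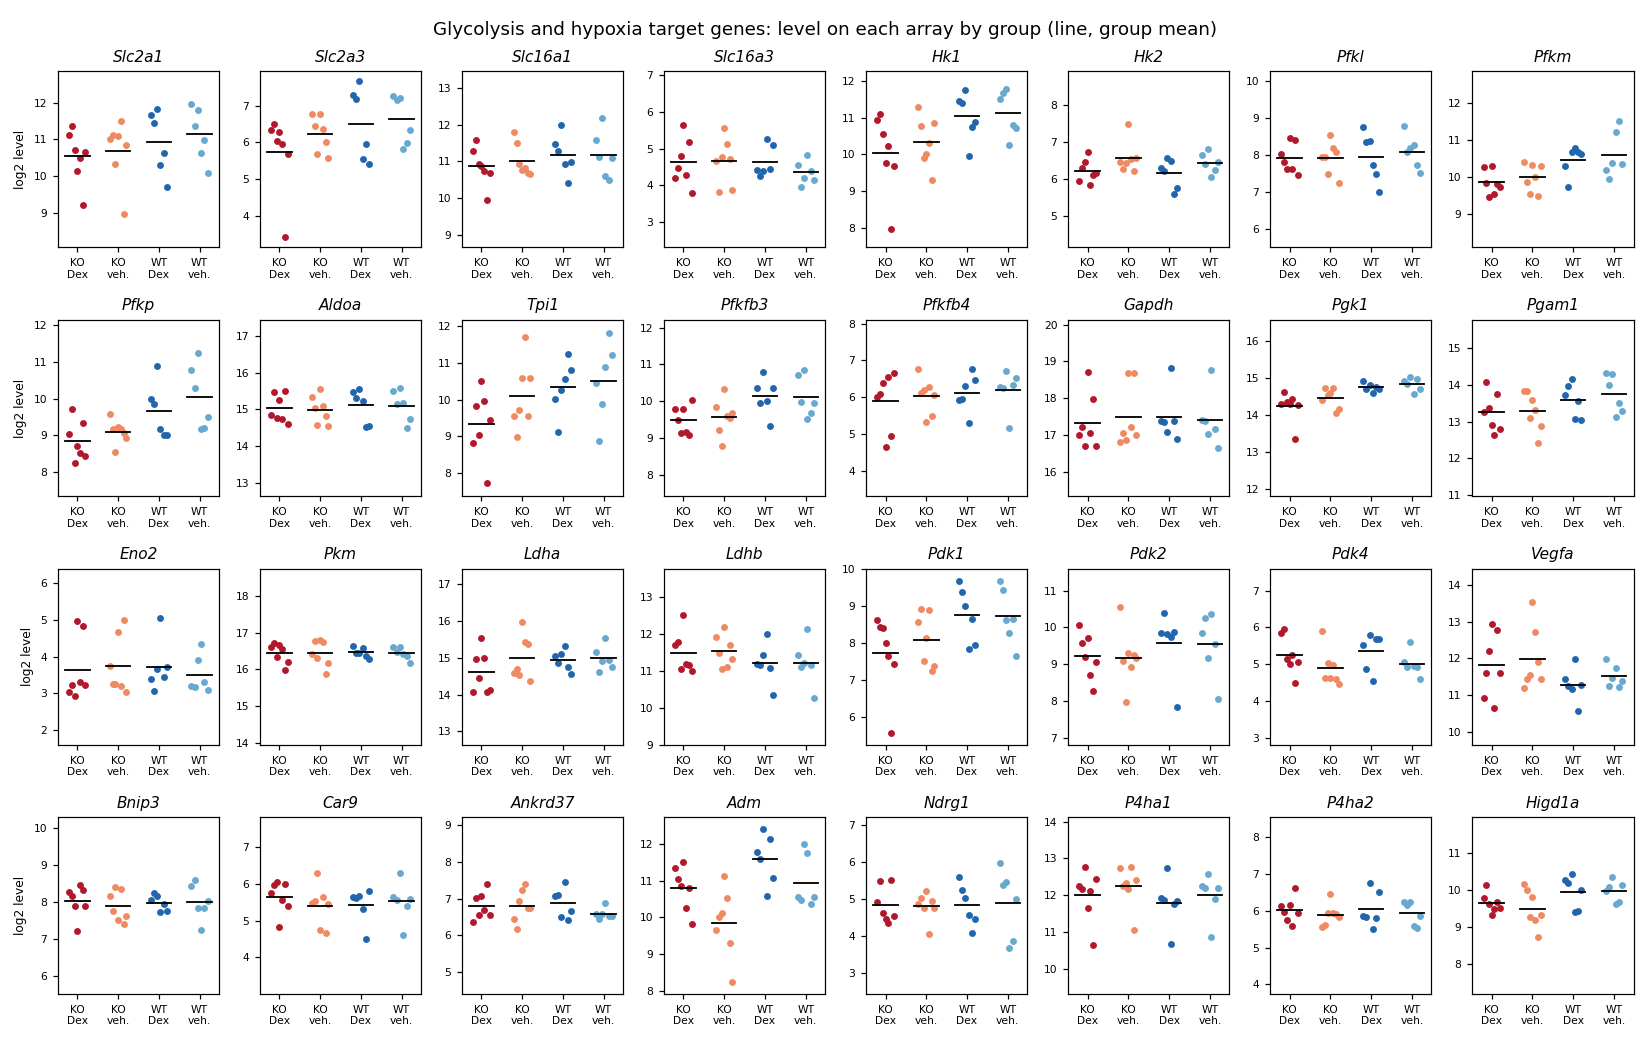
Level of each of the 32 measured genes (log2, y axis) on every array, by group (x axis), with a line at the group mean. All panels span the same number of log2 units. The groups overlap in every panel, and the lowest KO Dex arrays of Slc2a3 (3.43), Pgk1 (13.36) and Pdk1 (5.56) are all from culture 12.

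In vehicle, the KO cultures had lower mean levels than WT cultures for 22 of the 32 genes, and 6 of these had an unadjusted p under 0.05, namely Adm, Pfkp, Pfkm, Pgk1, Higd1a and Pfkfb3, with none on the higher side. By the adjusted p, 0.559% of all genes were called in this comparison and none of the set. By the unadjusted p, 5.17% of all genes were under 0.05, with 3.3% lower and 1.88% higher. The median difference was -0.14 over the set and -0.03 over all genes, of which 55.2% lay below 0. With array cluster as a covariate these medians were -0.06 and 0.01. A gene of the set had a 95% interval of 0.58 to either side at the median. Smaller differences mostly had an interval that included 0. The adjusted p of limma asks for larger ones, and Adm at -1.09 (0.357) and Pfkp at -0.93 (0.395) were not called.

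In Dex, KO cultures had lower mean levels than WT cultures for 25 of the 32 genes, and 8 had an unadjusted p under 0.05, all on the lower side: Pgk1, Pfkm, Hk1, Pfkfb3, Pdk1, Pfkp, Tpi1 and Adm. The adjusted p called none of them and 0.564% of all genes, and an unadjusted p under 0.05 was reached by 7.56% of all genes, with 5.42% lower and 2.14% higher. The median difference was -0.19 over the set and -0.06 over all genes, with 58.7% of all genes below 0. With each array centred on its median, 19 of the 32 genes lay below 0, against 22 in vehicle. The medians were then -0.11 over the set and 0.02 over all genes in Dex, and -0.11 and 0.01 in vehicle. The share of all genes below 0 after centring was not counted. Without culture 4, 0.554% of all genes were called in Dex and 0.523% in vehicle, and none of the set. In neither treatment did the KO and WT ranges of any gene of the set stay apart, while among all genes they did so for 0.159% higher and 0.359% lower in vehicle, and 0.19% higher and 0.292% lower in Dex.

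**Figure D2:**
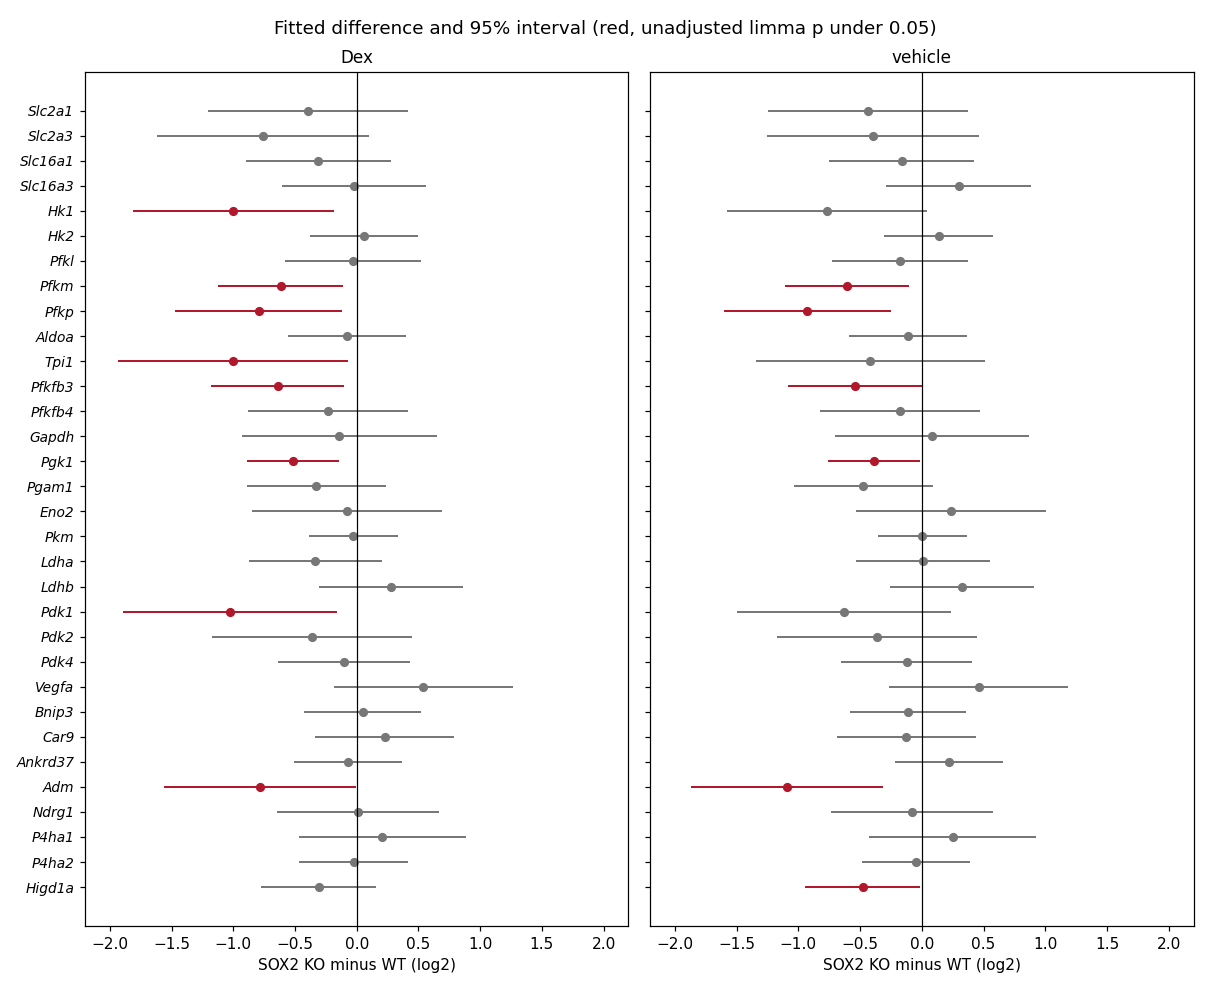
Fitted difference SOX2 KO minus WT (log2, x axis) for each gene (y axis) in Dex and in vehicle, with 95% intervals from limma. Red marks an unadjusted p under 0.05, reached by 8 genes in Dex and 6 in vehicle, all to the left of 0, and none with an adjusted p under 0.05.

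The transporters that bring glucose in and carry lactate out gave differences whose intervals all included 0. Slc2a1, the main glucose transporter of glia and the blood-brain barrier, differed by -0.40 ± 0.39 (SE) between KO and WT in Dex and by -0.44 ± 0.39 in vehicle. Slc2a3, the neuronal glucose transporter, differed by -0.76 ± 0.42 in Dex and -0.39 ± 0.42 in vehicle, and the Dex value was -0.37 without culture 12. Slc16a1 and Slc16a3, which move lactate together with a proton, lay between -0.31 and 0.30 in both treatments.

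Of the enzymes of upper glycolysis, Hk1, Pfkp and Pfkm had the lowest KO minus WT values in vehicle, and Tpi1 and Hk1 in Dex, while the isoenzymes Hk2 and Pfkl lay closer to 0. Hexokinase traps glucose as its phosphate. Hk1 ran from 7.98 through a median of 10.24 to 11.09 in KO Dex, against 9.95 through 11.15 to 11.75 in WT Dex. The difference was -0.999 ± 0.39 (95% interval -1.80 to -0.20, adjusted p = 0.462), and the single lowest array was that of culture 12, without which it was -0.66. In vehicle Hk1 ran from 9.30 through 10.32 to 11.29 in KO and from 10.27 through 11.15 to 11.77 in WT, a difference of -0.77 ± 0.39. Both pairs of groups overlapped over much of their range. Hk2, the inducible hexokinase, differed by 0.06 ± 0.21 in Dex and 0.14 ± 0.21 in vehicle.

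Phosphofructokinase is the committed step of glycolysis and has muscle, platelet and liver subunits, encoded by Pfkm, Pfkp and Pfkl. Pfkp ran from 8.55 through a median of 9.16 to 9.58 in KO vehicle, against 9.18 through 9.90 to 11.24 in WT vehicle, and differed by -0.93 ± 0.33 (95% interval -1.60 to -0.26, adjusted p = 0.395). The KO arrays at 9.24 and 9.58 were the only ones of 7 inside the WT range. In Dex it ran from 8.25 through 8.70 to 9.72 in KO and from 9.00 through 9.51 to 10.88 in WT, a difference of -0.79 ± 0.33 (adjusted p = 0.505). With the array cluster as a covariate the vehicle difference of Pfkp was -0.74 (adjusted p = 0.0779), where 1.93% of all genes were called. With culture 4 also left out it was -0.93 (adjusted p = 0.0315), where 1.08% of all genes were called. That setting was chosen after seeing the data, and cluster 2 then holds KO cultures only. The clusters were drawn from these same profiles, which can narrow the spread, so the p-values with this covariate are descriptive only.

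Pfkm ran from 9.46 through a median of 9.80 to 10.29 in KO Dex, against 9.74 through 10.64 to 10.78 in WT Dex. The difference was -0.62 ± 0.24 (95% interval -1.11 to -0.12, adjusted p = 0.462), and 5 of the 6 WT arrays stood above every KO array. In vehicle the KO range was 9.49 to 10.41 around a median of 10.01, the WT range 9.95 to 11.51 around 10.36, and the difference -0.61 ± 0.24 (adjusted p = 0.612). Pfkl differed by -0.03 ± 0.27 in Dex and -0.18 ± 0.27 in vehicle. The 3 subunits thus gave values of different size, and the difference between subunits was not tested.

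Aldolase A and triose phosphate isomerase follow. Aldoa differed by -0.08 ± 0.23 in Dex and -0.11 ± 0.23 in vehicle, with intervals from -0.55 to 0.39 and from -0.58 to 0.36. Tpi1 was spread more widely, from 7.73 through 9.46 to 10.51 in KO Dex and from 9.13 through 10.41 to 11.24 in WT Dex, a difference of -1.003 ± 0.45 (adjusted p = 0.589). In vehicle it differed by -0.42 ± 0.45.

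Pfkfb3 and Pfkfb4 make and break fructose 2,6-bisphosphate, the strongest activator of phosphofructokinase. Pfkfb3, whose kinase side dominates, ran from 9.08 through 9.50 to 10.02 in KO Dex, against 9.32 through 10.18 to 10.80 in WT Dex, and differed by -0.64 ± 0.26 (adjusted p = 0.501). In vehicle the difference was -0.54 ± 0.26 (adjusted p = 0.934). Pfkfb4 differed by -0.23 ± 0.31 in Dex and -0.18 ± 0.31 in vehicle.

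In lower glycolysis, Pgk1 was the gene with a difference whose interval left out 0. Phosphoglycerate kinase makes the first ATP of the pathway. Pgk1 ran from 13.36 through a median of 14.31 to 14.62 in KO Dex, against a narrow 14.59 through 14.74 to 14.92 in WT Dex, and only the top KO array entered the WT range. The difference was -0.52 ± 0.18 (95% interval -0.88 to -0.15, adjusted p = 0.341), and -0.37 without culture 12. In vehicle it ran from 14.05 through 14.54 to 14.73 in KO and from 14.57 through 14.89 to 15.02 in WT, a difference of -0.39 ± 0.18 (adjusted p = 0.876).

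The other enzymes of lower glycolysis had intervals that included 0. Pgam1, a phosphoglycerate mutase, differed by -0.33 ± 0.27 in Dex and -0.47 ± 0.27 in vehicle. Gapdh, often used as a loading control, differed by -0.14 (95% interval -0.92 to 0.64) in Dex and 0.08 (-0.70 to 0.86) in vehicle. Eno2, the neuronal enolase, differed by -0.08 ± 0.37 and 0.23 ± 0.37 in the same order. Pkm, a pyruvate kinase gene, had the narrowest intervals of the set in these comparisons. Its difference was -0.03 (-0.38 to 0.32) in Dex and 0.00 (-0.35 to 0.36) in vehicle.

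The genes that decide the fate of pyruvate gave values of both signs. Ldha, the lactate dehydrogenase subunit that favours lactate, differed by -0.33 ± 0.26 in Dex and 0.01 ± 0.26 in vehicle, and Ldhb, its partner subunit, by 0.28 ± 0.28 and 0.33 ± 0.28. Pdk1, the HIF-driven kinase that shuts pyruvate dehydrogenase, ran from 5.56 through 8.00 to 8.62 in KO Dex, against 7.83 through 8.84 to 9.69 in WT Dex. The difference was -1.03 ± 0.42 (95% interval -1.89 to -0.17, adjusted p = 0.501), and -0.67 without culture 12, which gave the lowest array. In vehicle Pdk1 differed by -0.63 ± 0.42. Pdk2 and Pdk4 lay between -0.36 and -0.10 in both treatments.

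Among the other hypoxia targets, Adm had the largest difference. It encodes adrenomedullin, a vasodilator peptide that hypoxia induces. Adm ran from 8.24 through a median of 10.02 to 11.12 in KO vehicle, against 10.37 through 10.56 to 11.99 in WT vehicle. The difference was -1.09 ± 0.38 (95% interval -1.86 to -0.33, adjusted p = 0.357), with 5 of the 7 KO arrays below every WT array. In Dex it ran from 9.81 through 10.85 to 11.50 in KO and from 10.58 through 11.69 to 12.40 in WT, a difference of -0.79 ± 0.38 (adjusted p = 0.642), or -0.99 without culture 4. The vehicle difference of Adm is given with culture 4 only, whose vehicle array was at 11.74.

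Higd1a, a mitochondrial protein that hypoxia induces, differed by -0.31 ± 0.22 in Dex, and in vehicle by -0.48 ± 0.22 (adjusted p = 0.888), with KO arrays from 8.73 through 9.32 to 10.18 and WT arrays from 9.64 through 10.05 to 10.36. Vegfa, the vessel growth factor, had the highest positive value of the set, 0.54 ± 0.35 in Dex and 0.46 ± 0.35 in vehicle, both with an interval that included 0. The mitophagy receptor Bnip3, the carbonic anhydrase Car9, the ankyrin repeat gene Ankrd37, the stress gene Ndrg1 and the collagen prolyl hydroxylases P4ha1 and P4ha2 lay between -0.12 and 0.25 in both treatments. Thus Adm and Vegfa, both classed as hypoxia targets, had opposite signs, and neither passed the test.

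Dex against vehicle within each KO culture gave 22 of 32 means below 0, with a median of -0.08 over the set and -0.02 over all genes, 54.5% of which lay below 0. The adjusted p called none of the set and 0.0718% of all genes, and the unadjusted p was under 0.05 for Adm, Tpi1, Ldha and Hk2, 4 of 32, against 10.2% of all genes. Of the 4, Adm was higher and 3 were lower with Dex, against 3.7% of all genes higher and 6.47% lower. No gene of the set had the same sign in all 7 KO cultures, as 1.01% of all genes did upward and 1.49% downward. In WT cultures 20 of 32 means were below 0, with a median of -0.03 over the set and 0.00 over all genes, 49% of which lay below 0. There the adjusted p called 0% of all genes, the unadjusted p was under 0.05 for Pfkp and Adm, 2 of 32, against 3.87% of all genes, with Pfkp lower (1.59% of all genes) and Adm higher (2.28%). Without culture 4 the adjusted p called 33 genes (0.169%), none of the set. No gene of the set was higher in all 6 WT cultures, as 2.07% of all genes were.

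**Figure D3:**
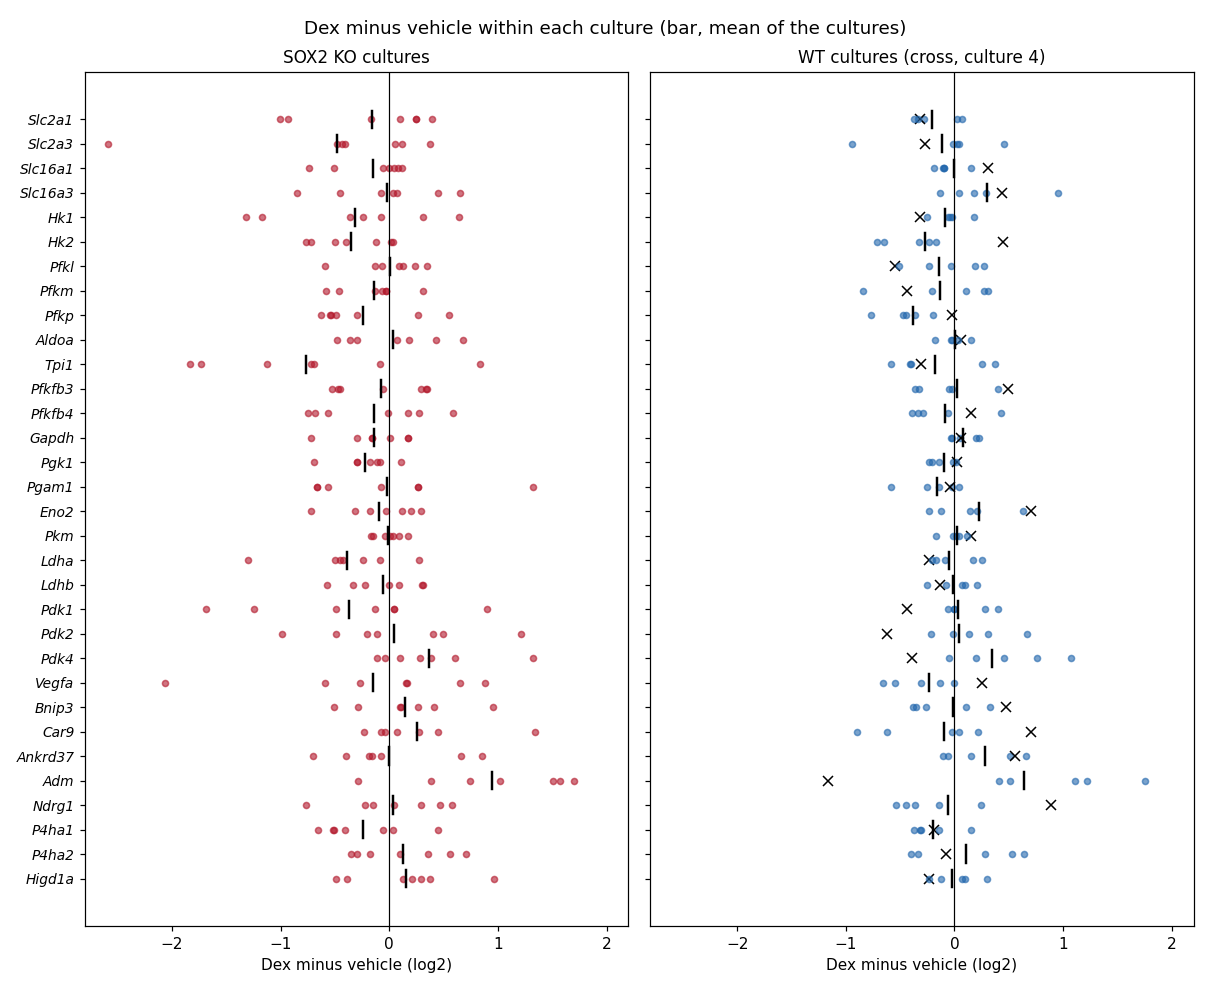
Dex minus vehicle (log2, x axis) in each culture for every gene of the set (y axis), in SOX2 KO and in WT cultures, with a bar at the mean. The cross is WT culture 4. Adm is to the right of 0 in 6 of 7 KO cultures and in 5 of 6 WT cultures, and Pfkp is to the left of 0 in 6 of 6 WT cultures.

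Adm had the largest Dex difference of the set in both genotypes. In KO cultures the paired differences ran from -0.29 through a median of 1.02 to 1.70, higher with Dex in 6 of 7, and averaged 0.95 ± 0.28 (SE, 95% interval 0.36 to 1.53, adjusted p = 0.316). In WT cultures they ran from -1.16 through 0.81 to 1.75, higher with Dex in 5 of 6, and averaged 0.64 ± 0.30 (adjusted p = 0.998). The 1 value below 0 was that of culture 4, and without it the 5 differences ran from 0.41 to 1.75 and averaged 1.00 ± 0.26 (adjusted p = 0.34). Without culture 5 instead, the Adm mean in WT was 0.42. Culture 4 also enters the shared estimate of the spread, and without it the adjusted p of Adm in KO was 0.124.

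**Figure D4:**
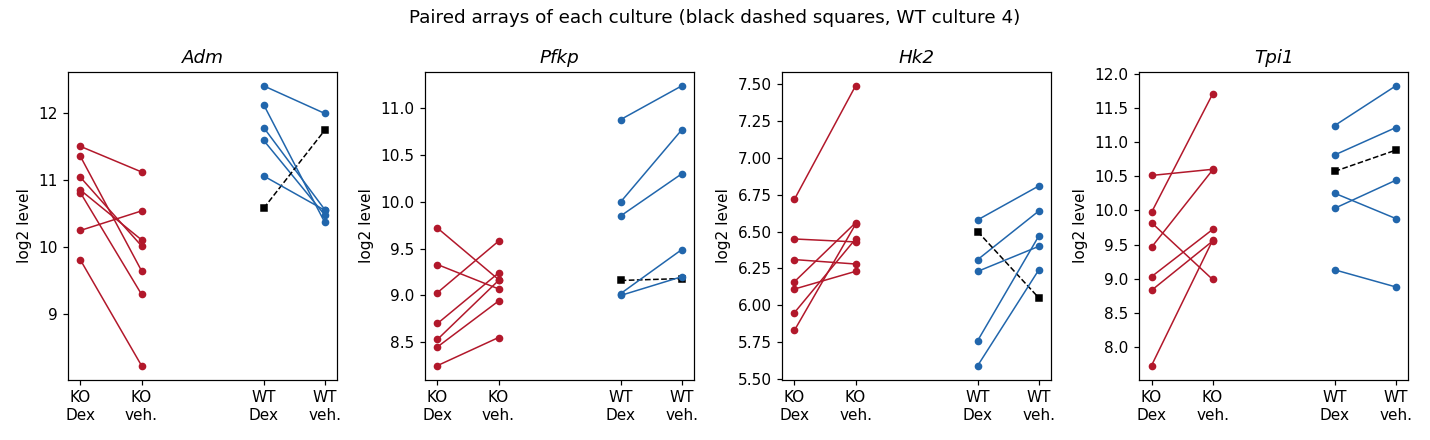
Level (log2, y axis) of Adm, Pfkp, Hk2 and Tpi1 with Dex and with vehicle in each SOX2 KO and WT culture (x axis), 1 line per culture. Black dashed squares are WT culture 4, whose Adm and Hk2 lines slope against those of the other 5 WT cultures.

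In upper glycolysis, Tpi1 and Hk2 were lower with Dex in most KO cultures, and Pfkp in all WT cultures. Tpi1 differences in KO ran from -1.83 through -0.72 to 0.83, lower in 6 of 7, and averaged -0.77 ± 0.24 (adjusted p = 0.336), and in WT they averaged -0.18 ± 0.26. Hk2 averaged -0.35 ± 0.15 in KO (lower in 5 of 7, adjusted p = 0.446) and -0.27 ± 0.16 in WT (lower in 5 of 6). The exception in WT was culture 4, and without it the Hk2 mean was -0.42 ± 0.16 (adjusted p = 0.958), lower in 5 of 5.

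Pfkp differences in WT ran from -0.77 through -0.41 to -0.02, lower in 6 of 6 cultures as for 2.11% of all genes, and averaged -0.38 ± 0.16 (adjusted p = 0.998). In KO cultures Pfkp averaged -0.24 ± 0.15, lower in 5 of 7. Without culture 4, Pfkp and Hk2 were the genes of the set lower in all 5 WT cultures, and Adm was the gene higher in all 5, against 4.96% and 5.03% of all genes.

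Past pyruvate, Ldha averaged -0.39 ± 0.15 in KO cultures (adjusted p = 0.414), with differences from -1.30 through -0.43 to 0.27, lower in 6 of 7. The lowest value was that of culture 12, and the mean without it was -0.24. In WT cultures Ldha averaged -0.05 ± 0.16. Pdk4, a known glucocorticoid target in other tissues, averaged 0.36 ± 0.18 in KO (higher in 5 of 7, adjusted p = 0.516) and 0.34 ± 0.20 in WT (higher in 4 of 6, adjusted p = 0.998). The KO mean of Pdk4 was 0.20 without culture 8, and the WT mean was 0.20 without culture 6 and 0.49 without culture 4. The lactate exporter Slc16a3 averaged -0.03 ± 0.17 in KO and 0.30 ± 0.18 in WT (0.16 without culture 6), and Pkm -0.01 ± 0.10 and 0.02 ± 0.11 in the same order. The remaining genes of the set had adjusted p-values of 0.524 or more in KO cultures and of 0.998 in WT cultures.

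Set against each other, the Dex effects in KO and in WT passed the test of their difference for no gene of the set, and the unadjusted p was under 0.05 for none of the 32, against 3.53% of all genes (1.31% higher and 2.22% lower), while the adjusted p called 0% of all genes. The median over the set was -0.04, and -0.03 over all genes, with 19 of 32 below 0 against 55.2% of all genes. After centring each array on its median 15 were below 0, with a median of 0.01 over the set and 0.01 over all genes. The culture differences of KO and WT did not stay apart for any gene of the set, as they did for 0.0308% of all genes upward and 0.0769% downward. The smallest p-values were those of Tpi1 (-0.59 ± 0.36), Ldha (-0.34 ± 0.22), Eno2 (-0.31 ± 0.21), Slc16a3 (-0.32 ± 0.25) and Gapdh (-0.22 ± 0.18), each with an adjusted p of 0.999. Without culture 12 the value was -0.19 for Ldha and -0.13 for Gapdh, without culture 7 it was -0.21 for Eno2, and for Slc16a3 it was -0.19 without culture 6 and -0.18 without culture 11. For Adm the effect in KO minus that in WT was 0.31 (95% interval -0.55 to 1.17), and -0.05 without culture 4. These intervals include differences as large as the Dex effects themselves.

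Like most genes of the arrays, those of the set differed more between array clusters than between genotypes. For 29 of 32 genes the gap between the highest and lowest cluster mean was wider than the KO minus WT difference in vehicle, the exceptions being Pfkm, Pfkfb3 and Adm, and the same held for 91.1% of all genes. The median gap was 0.83 over the set, against a median absolute KO minus WT difference of 0.29 in Dex and 0.27 in vehicle. Over all genes the median gap was 0.62 and the median absolute difference in vehicle 0.15. As deposited, cluster 1 was highest for 19 of the genes, cluster 2 for 11 and cluster 3 for 2. Arrays of cluster 1 also had the highest upper quartiles, and the share over all genes was not counted. The order depended on the scaling. After quantile normalization Aldoa, Pfkfb3, Pdk2 and Adm were highest in cluster 2 and no longer in cluster 1. Bnip3 and P4ha1 moved from cluster 1 to cluster 3, while Hk1 and Pdk1 stayed highest in cluster 1. The gap is the widest among 3 cluster means, and the clusters were derived from these profiles. These values are therefore a description with no test.

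Hk1 averaged 11.36 in cluster 1, 9.54 in cluster 2 and 10.47 in cluster 3, and Pdk1 9.04, 7.51 and 8.02. Gapdh ran from 17.97 to 18.82 in cluster 2, above every array of cluster 1 (16.82 to 17.40) and of cluster 3 (16.65 to 17.37), and stayed apart after quantile normalization and after median centring. Eno2 likewise ran from 4.35 to 5.05 in cluster 2, against 3.03 to 3.90 in cluster 1 and 2.94 to 3.73 in cluster 3. These are low levels, as the lowest deposited value was 2.22, and signal over background is not given. Pfkfb4 was apart on the other side, at 4.65 to 5.50 in cluster 2, against 5.94 to 6.76 and 6.06 to 6.77. Pfkfb4 and Eno2 also stayed apart after both rescalings. Slc16a1 was above the rest in cluster 1 as deposited, but not after either rescaling. Among all genes 1.58% were apart upward and 5.44% downward in cluster 2, and 2.27% were apart upward in cluster 1.

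**Figure D5:**
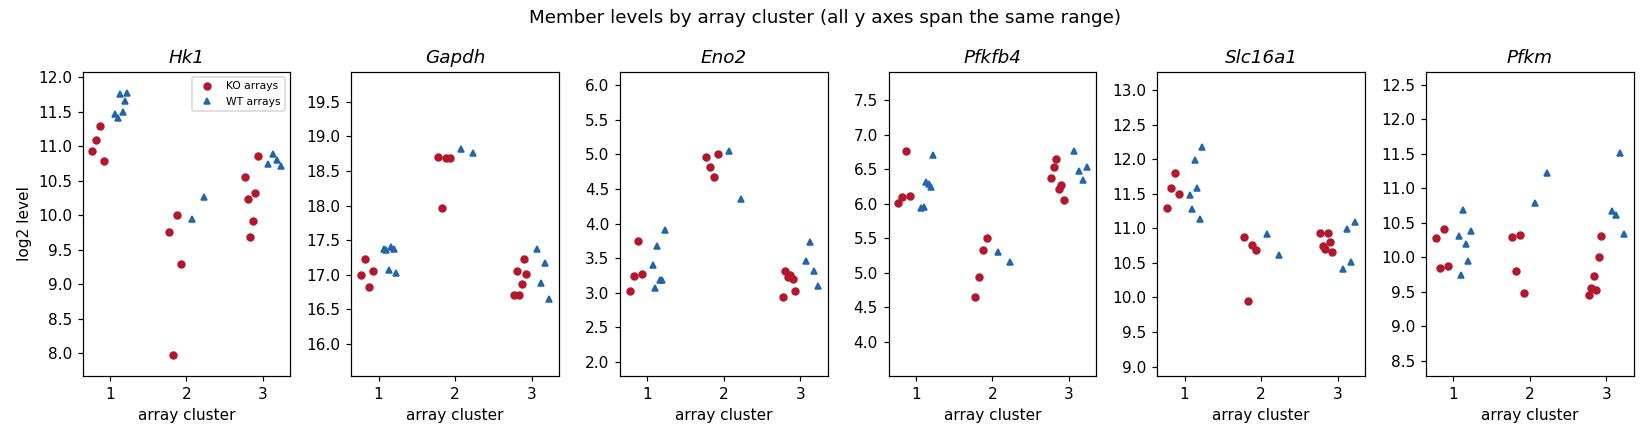
Level (log2, y axis) of Hk1, Gapdh, Eno2, Pfkfb4, Slc16a1 and Pfkm on each array, by array cluster (x axis), with circles for SOX2 KO and triangles for WT arrays. Gapdh and Eno2 are higher and Pfkfb4 lower on all 6 arrays of cluster 2, in both genotypes, and Pfkm differs by 0.15 or less between cluster means.

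Within the clusters the KO minus WT median over the set was -0.22, -0.17 and -0.12 in Dex for clusters 1, 2 and 3, and -0.29, 0.02 and 0.01 in vehicle, with 1 to 3 cultures a side. Over all genes the medians were -0.055, 0.025 and -0.005 in Dex, and 0.028, 0.005 and 0.023 in vehicle. On the WT side every cluster 2 value rests on culture 4. The share of all genes with 1 sign in all clusters was not counted. Pgk1 was lower in KO in all 3 clusters, with differences of -0.35, -0.77 and -0.39 in Dex and -0.37, -0.25 and -0.37 in vehicle. Hk1 was also lower in each, with -0.53, -1.08 and -0.66 in Dex and -0.61, -0.62 and -0.39 in vehicle. Tpi1 and Pdk1 were lower in KO in each cluster too, in both treatments. Pfkm gave -0.19, -0.74 and -1.06 in Dex and -0.04, -1.32 and -0.98 in vehicle, Pfkp -0.87, -0.15 and -0.60 in Dex and -1.40, -0.03 and -0.46 in vehicle. Adm gave -0.73, 0.58 and -1.29 in Dex, the positive one resting on WT culture 4 alone, and -1.18, -1.53 and -0.83 in vehicle.

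Of 47 other genes of glycolysis and glucose use, 40 were measured, and a few of these did pass the test where the set did not. In vehicle 2 of the 40 fell in KO cultures and none rose, against 0.369% of all genes lower and 0.19% higher. The unadjusted p was under 0.05 for 6 of the 40, against 5.17% of all genes. Aldoc, the brain aldolase and a glial gene, was at 12.69 through 13.30 to 13.61 in KO and 14.19 through 14.82 to 15.85 in WT, without overlap, and fell by 1.71 ± 0.22 (adjusted p = 3.57e-05). Pcx, pyruvate carboxylase, was at 6.06 through 6.70 to 8.19 in KO and 7.83 through 8.44 to 9.08 in WT, and fell by 1.65 ± 0.32 (adjusted p = 0.00677).

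In Dex 2 of the 40 fell and none rose, against 0.379% of all genes lower and 0.185% higher. The unadjusted p was under 0.05 for 7 of the 40, against 7.56% of all genes. Aldoc fell by 1.40 ± 0.22 (adjusted p = 0.000803), at 13.24 to 14.21 in KO and 14.81 to 15.58 in WT. Gpd2, the mitochondrial glycerol phosphate dehydrogenase, fell by 1.41 ± 0.30 (adjusted p = 0.0163), at 8.77 to 11.07 in KO and 11.14 to 12.63 in WT, and its adjusted p was 0.0631 without culture 2 and 0.0546 without culture 13. Of the 7 astrocyte markers, the median difference was -0.22 in Dex and -0.04 in vehicle, with 6 and 4 below 0, and Slc1a2, a glutamate transporter, was the only one called or under an unadjusted p of 0.05. It had differences of -2.08 ± 0.35 in Dex (adjusted p = 0.00153) and -2.03 ± 0.35 in vehicle (adjusted p = 0.00204). The mean of the 7 astrocyte markers was 9.79 to 11.41 in KO Dex, 10.19 to 11.59 in KO vehicle, 9.72 to 11.85 in WT Dex and 9.87 to 11.59 in WT vehicle, and its part in these results was not tested. In Dex against vehicle limma called none of the 40, and the unadjusted p was under 0.05 for 4 in KO and 2 in WT, against 10.2% and 3.87% of all genes.

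Of 40 further hypoxia targets 37 were measured, and limma's adjusted p called none in any of the 5 comparisons, while the unadjusted p was under 0.05 for 5 in KO against WT in Dex (7.56% of all genes), 5 in vehicle (5.17%), 9 for Dex in KO (10.2%), 2 for Dex in WT (3.87%) and none for the difference of the Dex effects (3.53%). The 8 genes of the HIF pathway itself were all measured. Hif1a, the oxygen-labile subunit, had a difference between KO and WT of -0.01 ± 0.26 in Dex and -0.09 ± 0.26 in vehicle. Hif3a, a HIF subunit with forms that restrain the others, was the only one of the 8 called. It rose with Dex in 7 of 7 KO cultures by 2.91 ± 0.31 (adjusted p = 0.000317), where 0.0718% of all genes were called. In Dex it was higher in KO than in WT by 1.60 ± 0.32 (adjusted p = 0.0099), where 0.564% of all genes were called. Without culture 4 that difference was 1.43 ± 0.26 (adjusted p = 0.0045). In WT cultures Hif3a differed by 1.02 ± 0.34 with Dex (adjusted p = 0.998), and by 1.54 ± 0.21 without culture 4 (adjusted p = 0.00262). The difference between its Dex effects, 1.89 ± 0.46, did not pass the test (adjusted p = 0.999), and was 1.37 ± 0.28 without culture 4 (adjusted p = 1).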

How the data were processed

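RNA of NSPC cultures was measured on 26 arrays from biotin-labelled cRNA, per the labels' protocols. The authors deposited 1 log2 value per transcript cluster and array, from 2.22 to 19.81. The log base was read from that range, and the normalization, software and genome build are not given in the sources used here, nor are array depths or background calls. Of 22206 transcript clusters 19572 had 1 gene symbol, none had several and 2634 had none, and all symbols matched RefSeq by Entrez identifier. The row of highest mean was kept for a gene with several, giving 19505 genes.

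Values were fitted with limma 3.58.1 in R 4.3.3. Genotype contrasts used 4 group means over all arrays. Dex contrasts used culture as a fixed block, because labels give both arrays of a culture the same sample number, and residuals of paired arrays correlated by 0.312 to 0.61 in KO and 0.491 to 0.731 in WT cultures. P-values were adjusted by Benjamini and Hochberg over all genes, and the fits were tested on simulated data. Array clusters came from average linkage of residual profiles. Other scalings, filters, blocks and left-out cultures are compared in the closing section. The rule for named genes took, per comparison, every gene of the set past the threshold, or the 5 of smallest p where fewer passed, up to 6 that passed from each other list, Sox2, and Fkbp5, Per1, Klf9 and Tsc22d3. Other genes of the set are given by their differences and ranges. The set and the lists were chosen with earlier results of these data known.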

Additional observations from a re-analysis of the deposited data

Results flagged for a closer look

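In each group of 6 or 7 arrays the gap between the highest or lowest array and its nearest neighbour was set against the range of the group. Of 128 combinations of gene and group 13 exceeded the 95% critical value of Dixon's test. Chance alone marks about 1 in 20 of normal values, and the share over all genes was not computed. Culture 12 with Dex gave 3 of them, each the lowest KO Dex array: Slc2a3 at 3.43 against 5.69 to 6.49 in the other 6, Pgk1 at 13.36 against 14.26 to 14.62, and Pdk1 at 5.56 against 7.42 to 8.62. The vehicle array of culture 12 was lowest for P4ha1, at 11.06 against 12.16 to 12.78. WT culture 4, the only WT culture of array cluster 2, gave 5. It was highest for Gapdh, at 18.82 against 16.88 to 17.37 in Dex and 18.76 against 16.65 to 17.40 in vehicle, for Eno2 in Dex at 5.05 against 3.06 to 3.73, and for Ankrd37 in vehicle at 6.89 against 6.44 to 6.57. It was lowest for Pfkfb4 in vehicle, at 5.16 against 6.24 to 6.71. Gapdh and Eno2 were higher and Pfkfb4 lower on all arrays of cluster 2, those of KO cultures included. The other 4 came from different cultures. Hk2 was at 7.49 in KO vehicle culture 10 (6.23 to 6.56 in the others), and Pdk4 at 5.90 in KO vehicle culture 7 (4.45 to 5.04). Ndrg1 was at 4.05 in KO vehicle culture 11 (4.77 to 5.23), and Pdk2 at 7.84 in WT Dex culture 6 (9.75 to 10.38).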

How the results depend on the processing

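No gene of the set was called in any of the 5 comparisons under these alternatives: quantile normalization, median centring, genes of low mean level left out, averaging where several transcript clusters share a gene, a trended and robust prior, array cluster as a covariate, only the arrays compared, other handling of the pairing, and each culture left out in turn (counts of 0 throughout). The exception was chosen after seeing the data, and its covariate was drawn from these same profiles. With array cluster as a covariate and culture 4 left out, 1 gene was called in KO against WT in vehicle, Pfkp at -0.93 (adjusted p = 0.0315). The other adjusted p-values of Pfkp there ranged up to 0.959. For the replicate block, the Dex fits without it gave 0 called genes of the set, with medians of -0.08 in KO and -0.03 in WT, and culture as a random replicate block gave 0 in both genotype contrasts. Leaving out each culture, the median over the set ran from -0.26 to -0.16 for KO against WT in Dex, -0.27 to -0.05 in vehicle (lowest without culture 4, highest without culture 3), -0.14 to -0.02 for Dex in KO, -0.07 to -0.01 for Dex in WT and -0.08 to 0.01 for the difference of the Dex effects, whose median was also 0.01 after median centring. Over all genes, array cluster as a covariate gave 2.04% called in Dex and 1.93% in vehicle, and leaving out culture 4 gave 0.251% called for Dex in KO. The number of arrays limits precision, and signal over background is not given.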
